A study of Mus musculus with 8 samples.

Results

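The regions described here are sites in the mouse ovary with a called peak of LRH-1, a nuclear receptor also named NR5A2. The peak was called both before and after the ovulatory signal, while no open chromatin was called there in granulosa cells at either time. They were chosen by the authors' peak calls of both assays. Members were taken from the LRH-1 peak list after the signal as peaks that overlapped a peak of the LRH-1 list before it by at least 1 bp and overlapped no peak of either FAIRE list. The rule found 1368 such peaks among 9413 LRH-1 peaks after the signal (14.5%, exact binomial 95% confidence interval 13.8 to 15.3). They are called FAIRE-negative persistent sites below. In the whole list after the signal, 41.9% of peaks were persistent and 44.7% overlapped no FAIRE peak; the rule used both measures, so nothing is read from these shares.

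The 4 peak lists came from C57BL/6 mice labelled LRH-1 +/+, aged 22 to 25 days. Follicle growth was stimulated in all mice with eCG (equine chorionic gonadotropin) at 5 IU. An ovulatory dose of 5 IU of hCG (human chorionic gonadotropin), a substitute for the surge of luteinising hormone, followed 44 h later. Samples labelled +OvS were collected 4 h after hCG, and samples labelled −OvS at 0 h, the time of hCG. FAIRE (formaldehyde-assisted isolation of regulatory elements) used granulosa cells punctured out of the ovary. The LRH-1 chromatin immunoprecipitation (ChIP) carries the same tissue label, but its protocol started from pieces of ovarian tissue (n = 5 per condition). A site of granulosa cells that gave no FAIRE peak and a site of another ovarian cell type cannot be told apart. Cell type markers were not checked, as peak lists hold no RNA levels and the RNA tables of the series were not used here.

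LRH-1 is an orphan nuclear receptor that binds DNA as a monomer at an extended half-site. In granulosa cells, the somatic cells around the oocyte, it is needed for ovulation and takes part in the control of steroid hormone synthesis. FAIRE recovers DNA that formaldehyde does not tie firmly to histones, which marks promoters and enhancers depleted of nucleosomes. Most transcription factors are found at such open sites, whereas pioneer factors can bind DNA that is wrapped on nucleosomes. In the early mouse embryo, NR5A2 has been described as such a factor.

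Each assay and time had 1 deposited list, although the labels state 2 replicates per list. Read depths are unknown from the sources used here. The list after hCG held 9413 LRH-1 peaks and 22791 FAIRE peaks, and the list before hCG held 5886 LRH-1 peaks and 21431 FAIRE peaks. With 1 list a time there is no spread between replicates, so no difference below was tested. Intervals cover counting error only. The fold enrichment and the score (the −log10 of the q-value) of a LRH-1 peak are the authors' own values and rank peaks within their list.

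Of the 3940 persistent peaks in the list after hCG, the 1368 FAIRE-negative sites made up 34.7% (95% interval 33.2 to 36.2). A further 1372 persistent peaks overlapped FAIRE peaks of both times, 327 FAIRE peaks of the list after hCG alone and 873 those of the list before hCG alone. Counted in the LRH-1 list before hCG, 1370 of 3938 persistent peaks (34.8%) had no FAIRE peak. Below, medians and shares of FAIRE-negative sites within the LRH-1 list before hCG alone are taken over these 1370 peaks. Almost every site was a match of single peaks. Of the 1368 sites, 1367 overlapped 1 peak before hCG and 1 overlapped more than 1. That exception lay on chromosome X from 166410920 to 166412104 (mouse build mm9, as all positions here). It was the widest of the sites at 1185 bp, with 4.29-fold enrichment after hCG and 3.54-fold at the overlapping peak with the largest shared length before it.

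The best-scoring FAIRE-negative sites stood among the best-scoring peaks of both LRH-1 lists. No control library or list of regions prone to false signal was used here, so whether these peaks mark LRH-1 binding was not tested. The site on chromosome X from 73399394 to 73399840 had rank 1 in both LRH-1 lists, at 30.1-fold after and 30.1-fold before hCG. Its scores were 249 after hCG and 212 before it, and its summits lay 2 bp apart. The nearest FAIRE peak was 44372 bp away. This site lies in a stretch where the numbering of the FAIRE list after hCG skips, which is described below.

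A second site, on chromosome 6 from 30487873 to 30488318, had 19.6-fold enrichment after hCG and 20.9-fold before it, at ranks 5 and 7 of the lists. Its summits were also 2 bp apart, and the nearest FAIRE peak was 27504 bp away. The site on chromosome 1 from 184430980 to 184431459 had 18.7-fold enrichment after hCG, at rank 3, and 14-fold before it, at rank 36. A FAIRE peak lay 1900 bp from it. These 3 sites had scores of 125 to 249 after hCG, while the next FAIRE-negative site scored 61.8.

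That next site lay on chromosome 3 from 28012745 to 28013229, with 14-fold enrichment after hCG and 10.7-fold before it. It was followed by chromosome 4 from 93992863 to 93993309 (14.9-fold after and 13.5-fold before hCG) and chromosome 17 from 44242237 to 44242675 (15.8-fold after and 16.9-fold before). The gap to the nearest FAIRE peak was 69511 bp for the site on chromosome 4, 24465 bp for that on chromosome 17 and 1667 bp for that on chromosome 3. Strong FAIRE-negative sites were therefore found close to open chromatin and far from it.

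Some strong sites stood at unlike places in the lists. The site on chromosome 15 from 82061509 to 82061918 had rank 33 after hCG (15.3-fold) and rank 632 before it (9.04-fold). The site on chromosome 11 from 19762185 to 19762672 had rank 34 after hCG (14.5-fold) and rank 463 before it (9.86-fold). In the other direction, the site on chromosome 4 from 137411577 to 137411919 had 7.9-fold enrichment after hCG and 13.5-fold before it, where it held rank 37. The site on chromosome 14 from 63864263 to 63864639 had 6.86-fold enrichment after hCG and 11.6-fold before it, at rank 46.

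The remaining sites of the 10 best-scoring in either list were 2 on chromosome 2, 1 on chromosome 6 and 1 on chromosome 14. On chromosome 2, the site from 91761267 to 91761744 had 12.5-fold enrichment after and 14-fold before hCG, and that from 124888179 to 124888620 had 10.8-fold after and 11.5-fold before. The second of these lay 103 bp from a FAIRE peak and 615 bp from another LRH-1 peak. On chromosome 6, the site from 15670235 to 15670797 had 11.1-fold after and 14.8-fold before hCG. On chromosome 14, the site from 26406999 to 26407437 had 8.52-fold after and 11.1-fold before. Of the 10 best-scoring sites of each list, 6 were the same.

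At the weak end, the 5 lowest-scoring sites after hCG had 3.35- to 4.1-fold enrichment there and 4.11- to 7.13-fold before it. The weakest lay on chromosome 18 from 68428700 to 68428932, with 3.35-fold after hCG and 4.57-fold before it. Its peaks in both lists had the lowest width of the list, 233 bp after and 219 bp before hCG. They shared 7.76% of the shorter peak, the lowest such value among FAIRE-negative sites, whose median was 99.1%. The highest value before hCG among these 5 belonged to chromosome 14 from 101917481 to 101917805, at 3.67-fold after hCG against 7.13-fold before it.

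As a group, the FAIRE-negative sites had a lower median enrichment than persistent LRH-1 sites in open chromatin. Peaks of a single time without FAIRE are given beside them as a description, since a weak peak is the more easily missed in the other list and persistence rests on those same calls. In the list after hCG their fold enrichment ran from 3.27 to 30.1 with a median of 5.68 (quartiles 4.92 and 6.73). The 2572 other persistent peaks had a median of 6.04 (quartiles 5.12 and 7.35), and the 2844 peaks gained after hCG without FAIRE had a median of 4.97 (quartiles 4.48 and 5.56). In the list before hCG, the median was 5.69 for its 1370 FAIRE-negative persistent peaks (quartiles 4.99 and 6.62). It was 6.16 for the 2568 other persistent peaks and 5.29 for the 971 peaks lost after hCG without FAIRE. The quartile ranges of these groups overlap widely.

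Medians followed whether a FAIRE peak of the same time was present. In the list after hCG, FAIRE-negative sites had a median of 5.68 and persistent sites with FAIRE before hCG alone 5.7. Sites with FAIRE after hCG alone had 6.27 and those with FAIRE at both times 6.28. In the list before hCG the order of the single-time classes was turned round. There, FAIRE-negative sites had a median of 5.69 and sites with FAIRE after hCG alone 5.59, whereas sites with FAIRE before hCG alone had 6.3 and those with FAIRE at both times 6.22. In each list, the 95% intervals of the 2 classes without a FAIRE peak of that time overlapped, as did those of the 2 classes with one. After hCG the first pair reached up to 5.85 and the second pair began at 6.05, and before hCG these bounds were 5.79 and 6.13.

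**Figure D1:**
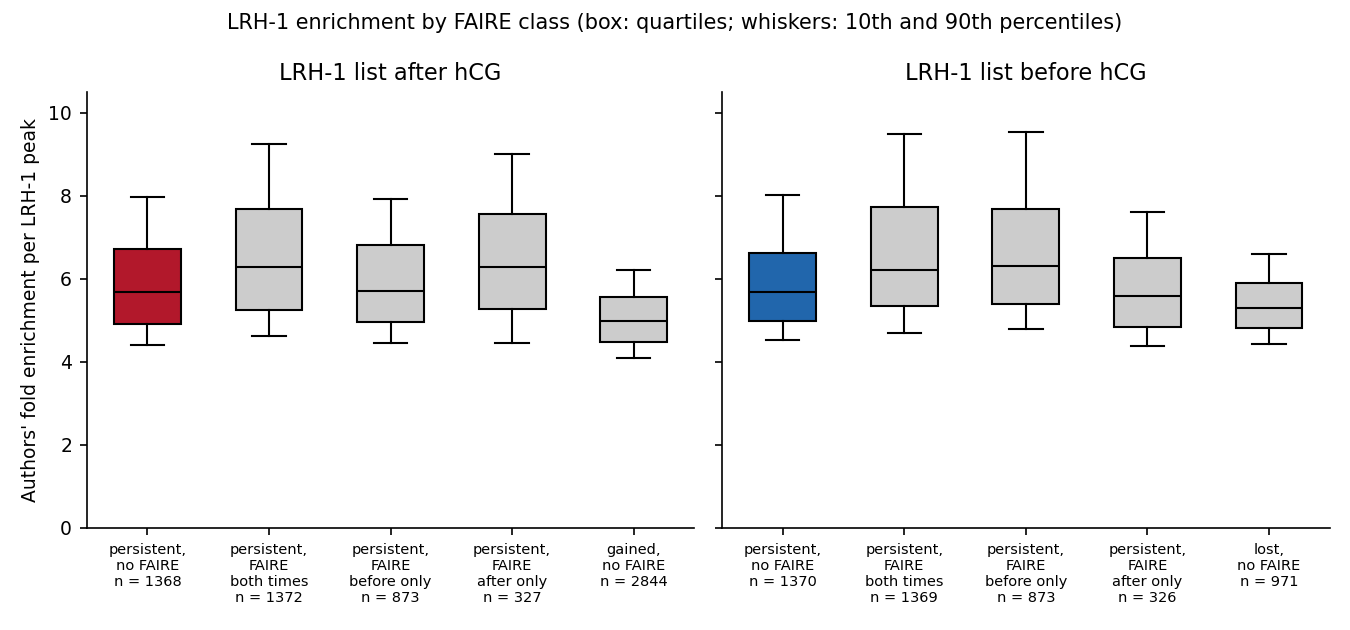
Authors' fold enrichment of LRH-1 peaks by FAIRE class, in the list after hCG (left) and before hCG (right); boxes span the quartiles with the median as a line, and whiskers reach the 10th and 90th percentiles. FAIRE-negative persistent sites (coloured) have medians of 5.68 after hCG and 5.69 before it, the latter over the 1370 such peaks of that list. Both lie below sites with FAIRE at both times (6.28 after and 6.22 before). Gained (4.97) and lost (5.29) sites without FAIRE are shown beside them.

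Of the FAIRE-negative sites, 62.5% scored above the median of the whole list after hCG (95% interval 59.9 to 65.1), as did 74.8% of the other persistent peaks (73.1 to 76.5) and 29.4% of gained peaks without FAIRE (27.7 to 31.1). Before hCG the shares were 48.2% (45.6 to 50.9), 64.5% (62.6 to 66.3) and, for lost peaks without FAIRE, 28% (25.2 to 31). Each cut-off is the median of its own list, of 9413 peaks after hCG and 5886 before it. The shares of the 2 times are therefore not compared. High enrichment was rare among FAIRE-negative sites: 29 exceeded 10-fold after hCG (2.12%, 1.42 to 3.03) and 50 of the 1370 in the list before hCG (3.65%). Among other persistent peaks, 111 exceeded 10-fold after hCG (4.32%, 3.56 to 5.17) and 188 before it (7.32%). In both lists at once, 12 FAIRE-negative sites and 63 other persistent peaks did.

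The share of persistent peaks that lacked FAIRE was lower at higher LRH-1 scores. Persistent peaks were divided into 10 equal groups by their score after hCG. In the lowest-scoring group 176 of 394 peaks had no FAIRE peak (44.7%, 95% interval 39.7 to 49.7), and in the highest-scoring group 69 of 394 (17.5%, 13.9 to 21.6). The groups between did not form a smooth line, with 34% in group 4 and 41.1% in group 5. By the score before hCG the shares were 43.7% (38.7 to 48.7) in the lowest group, 47.2% in the one above it and 17% (13.4 to 21.1) in the highest.

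**Figure D2:**
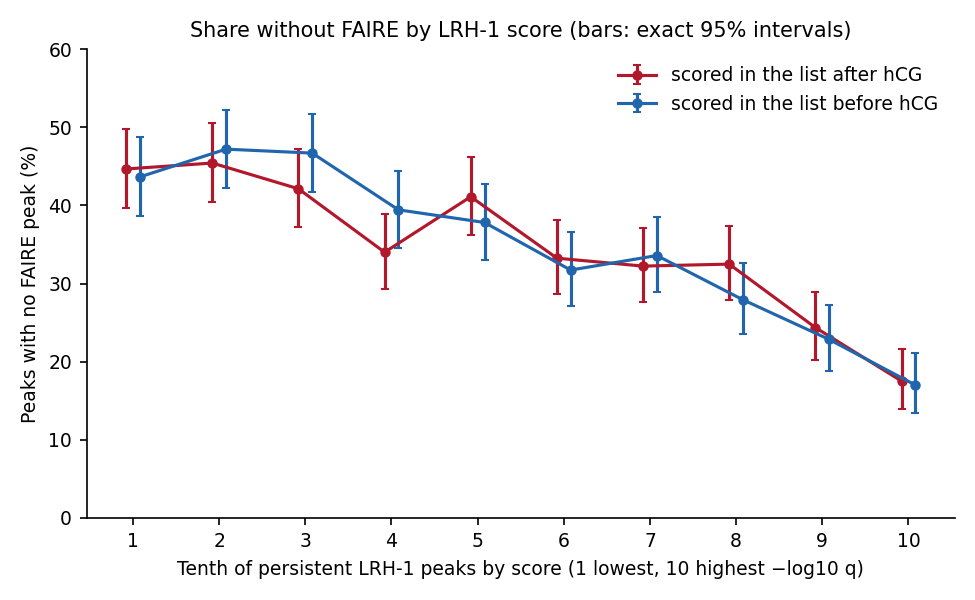
Percent of persistent LRH-1 peaks with no FAIRE peak in 10 equal groups by LRH-1 score, lowest at the left, with the scores of the list after hCG (red) and before hCG (blue); bars are exact 95% intervals. The share is 44.7% (after) and 43.7% (before) in the lowest group and 17.5% and 17% in the highest.

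Peak width went the same way. FAIRE-negative sites had a median width of 337 bp after hCG, against 382 bp for the other persistent peaks, and 290 bp before hCG, against 318 bp. At the lowest width of the list after hCG, 233 bp, stood 79 FAIRE-negative sites (5.77%, 4.6 to 7.15) and 66 other persistent peaks (2.57%, 1.99 to 3.25). A wide peak can touch a FAIRE peak more easily than a narrow one. With overlap judged in a fixed window of 100 bp on each side of the LRH-1 summit, 1390 persistent peaks had no FAIRE peak (35.3%). The share was then 45.4% in the lowest and 17.8% in the highest of the 10 score groups after hCG. Within 5 equal groups by width, the share was lower in the best- than in the worst-scoring group of 158 peaks each time. The intervals overlapped in 4 of the 5 width groups. The smallest gap was 41.8% against 45.6% among the narrowest peaks (34 to 49.9 and 37.6 to 53.7). In the widest group, where the intervals were apart, the shares were 12.7% and 31.6% (7.91 to 18.9 and 24.5 to 39.5).

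The rule requires the peaks of both lists to overlap, which by itself keeps their summits close, so the offsets are given as a description. At FAIRE-negative sites the summits of both lists lay a median of 47 bp apart, with quartiles of 21 and 79 bp, and the other persistent peaks had a median of 42 bp with quartiles of 19 and 78 bp. Summits were within 100 bp at 1146 FAIRE-negative sites (83.8%, 81.7 to 85.7) and at 2164 other persistent peaks (84.1%, 82.7 to 85.5). The sites with the largest offsets were on chromosome 5 from 143085805 to 143086619 (519 bp), chromosome 7 from 52128470 to 52128749 (466 bp) and chromosome 6 from 100173458 to 100173697 (462 bp). On chromosome 7 the peak was 280 bp wide after hCG and 671 bp before it, on chromosome 6 240 bp and 786 bp, and on chromosome 5 815 bp and 511 bp.

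Enrichment of a site in one list was moderately related to that in the other. Across the 1368 FAIRE-negative sites, Spearman's rho between the fold enrichment after and before hCG was 0.44, and across the 2572 other persistent peaks it was 0.46. Sites are not replicates, and each list is 1 set of calls. Of the 136 best-scoring FAIRE-negative sites after hCG, 60 were also among the 136 best-scoring before it (44.1%, 35.6 to 52.9). The same held for 111 of 257 other persistent peaks (43.2%, 37 to 49.5). Of the 136 worst-scoring sites after hCG, 3 were among the best-scoring before it.

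**Figure D3:**
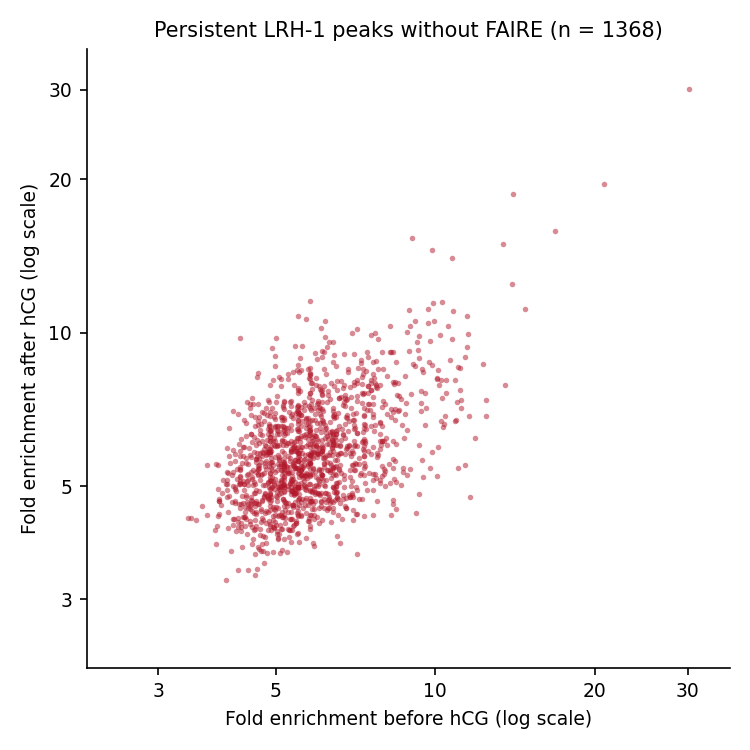
Authors' fold enrichment of each of the 1368 FAIRE-negative persistent sites after hCG (vertical axis) and before hCG (horizontal axis), both on log scales; each point is a site. Most points form a loose cloud around a median of 5.68 after hCG, and the site on chromosome X stands alone at 30.1-fold in both lists.

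The median distance of FAIRE-negative sites to the nearest FAIRE peak of either time was 9227.5 bp, with quartiles of 2816.5 and 23632 bp. This distance depends on how many FAIRE peaks are counted. For the same sites it was 14446.5 bp to the FAIRE list after hCG alone and 14564.5 bp to that before hCG alone, and with the better-scoring 50% of each FAIRE list, which gives 2026 sites, it was 20961 bp. A FAIRE peak lay within 1000 bp of 170 sites (12.4%, 10.7 to 14.3), within 10000 bp of 716 (52.3%, 49.7 to 55) and within 100000 bp of 1324 (96.8%), which left 44 sites farther away. For gained peaks without FAIRE, the share within 1000 bp was 10.6% (9.51 to 11.8) and within 10000 bp 46.6% (44.7 to 48.4). For lost peaks without FAIRE it was 8.96% (7.24 to 10.9) and 48.7% (45.5 to 51.9). The FAIRE-negative persistent sites had the highest share at both distances. At 1000 bp their interval overlapped those of the gained and of the lost peaks. Their interval at 10000 bp lay above that of the gained peaks and overlapped that of the lost peaks.

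**Figure D4:**
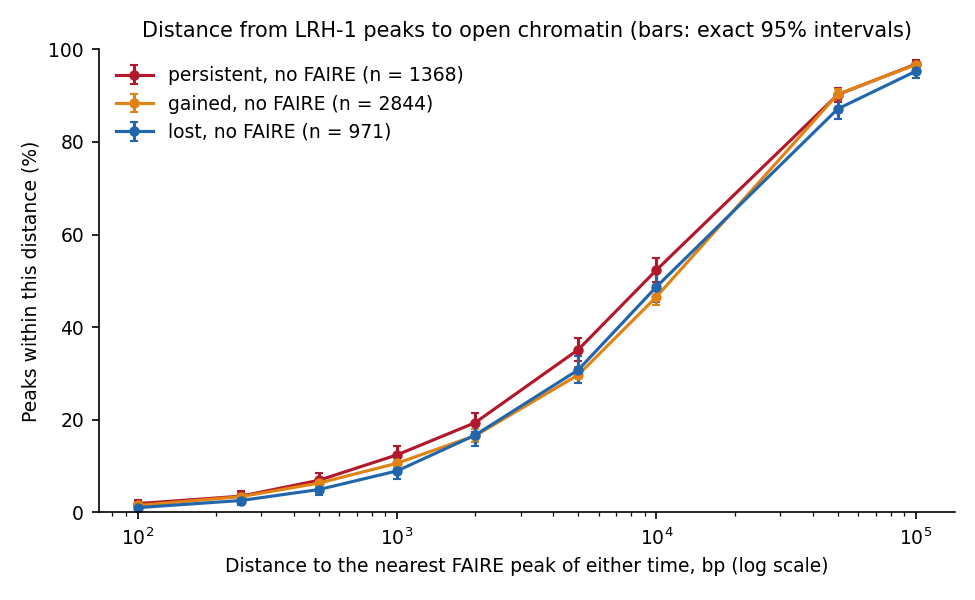
Percent of LRH-1 peaks without FAIRE that lie within a given distance of a FAIRE peak of either time, for persistent, gained and lost peaks; the horizontal axis is in bp on a log scale and bars are exact 95% intervals. At 10000 bp the share is 52.3% for persistent, 46.6% for gained and 48.7% for lost peaks.

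The nearest FAIRE peak belonged to the list after hCG at 682 FAIRE-negative sites and to the list before hCG at 684. Of the 170 sites with a FAIRE peak within 1000 bp, 65 had one in both lists, 62 in the list after hCG alone and 43 in the list before hCG alone. These nearby FAIRE peaks had a median authors' score of 79 after hCG, where all FAIRE peaks had 71.4, and of 85.5 before hCG, where all had 70.5. LRH-1 enrichment showed no steady order with distance. The median after hCG was 5.41-fold at the 170 sites within 1000 bp, 5.74-fold at the 546 sites from there to 10000 bp, 5.65-fold at the 518 sites up to 50000 bp and 5.89-fold at the 134 sites beyond.

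The surroundings held as many FAIRE peaks as those of other persistent sites. Within 50 kb on each side of the summit, and leaving out FAIRE peaks that overlap the LRH-1 peak itself, FAIRE-negative sites had a mean of 2.18 FAIRE peaks of the list after hCG, against 2.2 for the other persistent peaks. For the list before hCG the means were 2 and 1.98. No FAIRE peak of the list after hCG was in this window at 18.8% of FAIRE-negative sites (16.7 to 21) and at 17.9% of the other persistent peaks (16.4 to 19.4).

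The members nearest to the border of the rule were as follows. Just inside it, the site on chromosome 17 from 57130192 to 57130494 touched a FAIRE peak of the list before hCG without sharing a base. Sites on chromosome 7 from 90780695 to 90781319 and on chromosome 8 from 109639385 to 109639702 lay 3 bp from one. The site on chromosome 14 from 23685225 to 23685680 lay 4 bp from one. That on chromosome 7 from 26102340 to 26102660 lay 7 bp from a FAIRE peak of the list after hCG. Enrichment of all these sites after hCG was 3.73- to 6.57-fold. Just outside it, the persistent peak on chromosome 3 from 101609729 to 101610105 (10.6-fold after and 5.76-fold before hCG) shared 2 bp with a FAIRE peak. Peaks on chromosome 17 from 56724865 to 56725181 and chromosome 11 from 109472071 to 109472495 shared 6 bp. Peaks on chromosome 13 from 74198513 to 74198807 and chromosome 11 from 102269024 to 102269375 shared 13 and 17 bp. Few sites were near this border: 26 FAIRE-negative sites had a FAIRE peak within 100 bp, and 2514 of the 2572 other persistent peaks (97.7%) had their summit inside a FAIRE peak.

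The sites farthest from any FAIRE peak were a pair on chromosome 5, from 112228444 to 112228806 and from 112178518 to 112178800, at 434412 and 384486 bp. Their enrichment was 4.75- and 5.53-fold after hCG, against 5.54- and 8.18-fold before it. Next came chromosome 14 from 36666449 to 36666703 (350019 bp, 6.14-fold after and 7.95-fold before hCG) and chromosome 5 from 141614713 to 141615039 (307531 bp, 5.68-fold and 4.65-fold). The fifth, on chromosome 18 from 77555350 to 77555751, lay 268714 bp from a FAIRE peak with 8.78-fold enrichment after hCG and 6.42-fold before it. The 2 sites on chromosome 5 lay closer to other LRH-1 peaks, at 6628 and 42763 bp, and the nearest to any of the other 3 was at 308998 bp.

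The absence of a FAIRE peak depends on what the FAIRE lists hold. The lowest FAIRE score was 40 in both lists. At a minimum score of 60, a threshold chosen after the data were seen, 1818 of the 3940 persistent peaks had no FAIRE peak (46.1%), and at 100 there were 2581 (65.5%). FAIRE peaks are numbered along the genome, and 621 numbers in the list after hCG and 575 in the list before it are skipped. A LRH-1 peak was counted in a stretch with skipped numbers if the last FAIRE peak starting before it, in either list, was followed by a skipped number. This held for 71 FAIRE-negative sites (5.19%, 4.08 to 6.5) and 67 other persistent peaks (2.6%, 2.02 to 3.3). The other persistent peaks overlap a listed FAIRE peak by definition, so the 2 shares are partly set by the rule. A skipped peak may lie at any place in such a stretch. Without these 71 sites, 1297 remained, with a median enrichment of 5.66-fold after hCG. The site of rank 1 on chromosome X is among the 71. The other 13 sites named as best-scoring, and the 5 farthest from FAIRE, are not.

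FAIRE-negative sites were spread over all 20 chromosomes of the lists. Chromosome 2 held the most, with 120, and chromosome X the fewest, with 13. As a share of the persistent peaks of a chromosome, they ran from 25.9% on chromosome 13 (45 of 174, 95% interval 19.5 to 33) and 26.4% on chromosome 10 (56 of 212, 20.6 to 32.9) to 41.1% on chromosome 19 (46 of 112, 31.9 to 50.8) and 44.6% on chromosome 5 (116 of 260, 38.5 to 50.9). Leaving out stretches with skipped FAIRE numbers gave 25.6% on chromosome 13, 25.5% on chromosome 10, 37.3% on chromosome 19 and 43.4% on chromosome 5. The interval of chromosome 5 lay above the genome-wide 34.7%, and those of chromosomes 10 and 13 lay below it; these are extremes of 20 intervals.

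**Figure D5:**
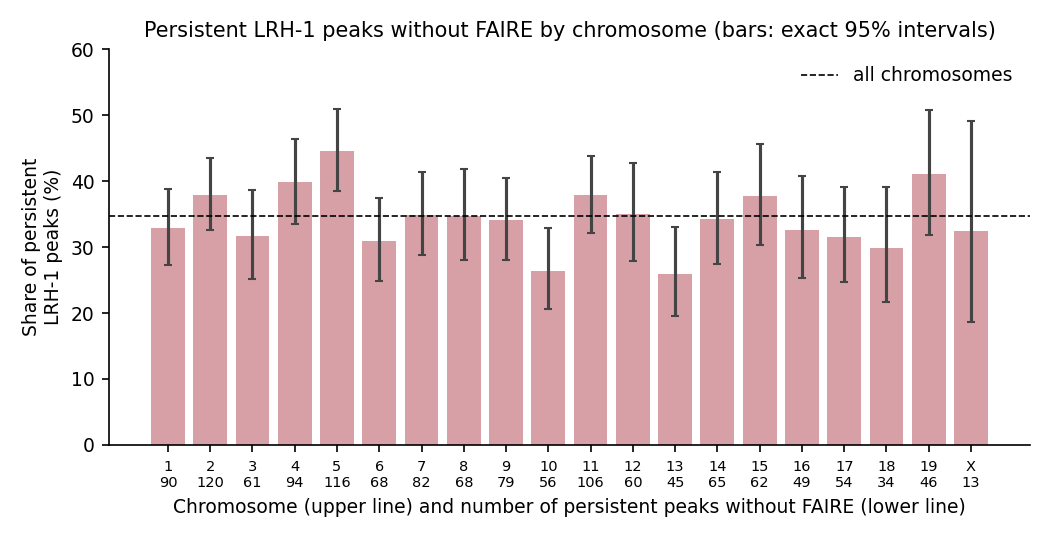
Share of persistent LRH-1 peaks without FAIRE on each chromosome in percent, with exact 95% intervals; the lower line of labels gives the number of FAIRE-negative sites and the dashed line the share over all chromosomes (34.7%). Chromosome 5 has the highest share (44.6%) and chromosome 13 the lowest (25.9%).

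The grouping of the sites along the genome is given as counts. They were not set against an even scatter, so clustering was not tested. In windows of 1 Mb, 821 held at least 1 FAIRE-negative site, 475 of them exactly 1, and 2 windows held 7. Those were chromosome 11 from 78000001 to 79000000 and chromosome 6 from 134000001 to 135000000. The window on chromosome 11 also held 5 other persistent, 7 gained and 2 lost LRH-1 peaks, with 18 FAIRE peaks after hCG and 22 before it. The window on chromosome 6 held 5 other persistent, 8 gained and 0 lost LRH-1 peaks, with 29 FAIRE peaks after hCG and 19 before it. Of 5 windows with 6 sites each, 1 was named by the same rule, on chromosome 11 from 115000001 to 116000000, with 5 other persistent, 10 gained and 3 lost LRH-1 peaks. Windows rich in FAIRE-negative sites were thus also occupied by other LRH-1 peaks and by open chromatin.

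Pairs of FAIRE-negative sites were closest on chromosome 11, where 96112281 to 96112735 and 96113023 to 96113438 lay 287 bp apart (5.17- and 3.89-fold after hCG, 4.52- and 5.34-fold before it). Both sites of this pair lie in a stretch with skipped FAIRE numbers. The next pairs lay on chromosome 1, from 64024517 to 64024880 and from 64025426 to 64025778 (545 bp apart), and on chromosome 11, from 78157910 to 78158183 and from 78158839 to 78159243 (655 bp apart). In all, 59 FAIRE-negative sites (4.31%) had another within 10 kb and 403 (29.5%) within 100 kb. Any other LRH-1 peak of the list after hCG lay within 10 kb of 317 sites (23.2%, 21 to 25.5), and of 561 other persistent peaks (21.8%, 20.2 to 23.5). Of those 317 nearest neighbours, 162 overlapped a FAIRE peak and 155 did not (48.9%, 43.3 to 54.5), an interval that holds the 44.7% of all LRH-1 peaks after hCG. Of the 561 neighbours of other persistent peaks, 227 did not (40.5%, 36.4 to 44.7). Neighbours can share 1 FAIRE peak, and no FAIRE peak that holds a neighbour can reach a FAIRE-negative site. Both shares are therefore partly set by the rule.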

How the data were processed

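LRH-1 ChIP and FAIRE peak lists at 4 h and 0 h after hCG were used, 1 list for each assay and time. Reads were aligned with BWA to mm9, per the submitters' processing notes, which also name MACS2 2.1.0 and bedtools for the LRH-1 lists; FAIRE peaks carry MACS in their names, per the files. The sources used here do not say whether the 2 labelled replicates were pooled. Each peak of the deposited LRH-1 lists has a summit, the authors' fold enrichment as a ratio, −log10 values of p and q, and a score of 10 times the −log10 q; the text gives the −log10 q as the score. The deposited FAIRE lists hold a position and a score.

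Overlaps and distances were computed with pandas 2.3.3, numpy 2.4.6 and scipy 1.17.1 under Python 3.11.15, with plots by matplotlib 3.10.9. The code was tested on simulated data and against bedtools 2.31.1. Overlap means at least 1 shared bp, distances run between peak edges, and printed starts count from 1. Shares have exact Clopper-Pearson intervals at 95%. Medians have order-statistic (binomial) intervals at 95%, which count each peak of a list as 1 observation. The sites, lists and named regions were chosen with earlier results of these data known. Named were the 10 best-scoring sites of each LRH-1 list, the 5 worst-scoring after hCG, the 5 nearest to and farthest from FAIRE, 5 peaks just outside the rule, the 3 densest windows, the 3 closest pairs and the 3 largest summit offsets. The widest site was named after its value was seen. The RNA tables were not used, and no mm9 sequence or annotation was used here, so genes, motifs and sequences at the sites were not analysed.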

Additional observations from a re-analysis of the deposited data

How the results depend on the processing

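The number of sites was between 1014 and 2026, within 1.5 times of 1368, under 10 of 11 alternatives; with the better-scoring 50% of each LRH-1 list it was 493, as fewer peaks enter. The share of persistent peaks without FAIRE (34.7%) was 32.3% and 28% with FAIRE peaks widened by 500 and 2000 bp, 26.6% with the better-scoring 50% of each LRH-1 list, 32.1% with equal numbers of LRH-1 peaks and 51.4% with the better-scoring 50% of each FAIRE list. The median enrichment was 6.71-fold with the better-scoring 50% of each LRH-1 list and 6.13-fold with equal numbers, and stayed below that of the other persistent peaks under all 11 alternatives, by 0.2 to 0.47. The median width was 376, 357, 347 and 290 bp with the better-scoring 50% of each LRH-1 list, equal numbers, the better-scoring 50% of each FAIRE list and the list before hCG. The median distance to FAIRE was 10347 and 12731 bp with widened FAIRE peaks, 6975 bp with the better-scoring 50% of each LRH-1 list, 20961 bp with that of each FAIRE list, and 14446.5 and 14564.5 bp with the FAIRE list after or before hCG alone. The fixed window and the removal of skipped FAIRE numbers were chosen after the data were seen. No paired analysis was possible because each assay and time has 1 list. Alternatives on motifs, transcription starts and RNA were not run, as no mm9 sequence or annotation was used here.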
